A study of Mus musculus with 18 samples.

Results

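Oxt, Avp, Gal, Gnrh1, Trh, Hcrt and Pmch, the genes of 7 peptides made by hypothalamic neurons, were examined in the mouse nucleus accumbens. They were taken by symbol from each of the authors' 7 deposited tables, each of which lists 37980 genes, and all 7 were found as 1 row each in every table. They were chosen as hypothalamic peptide genes with large swings between these groups, so their own levels and fold changes are given as a description and support nothing by themselves.

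The mice had a C57BL/6 background and carried the label Rgs9-2 wild type or Rgs9-2 knockout; the labels used here state no age. Each genotype label had a naive group, a group with spared nerve injury (a partial lesion of the sciatic nerve that causes lasting neuropathic pain) given saline, and a group with the same injury given the tricyclic antidepressant desipramine. Desipramine was given at 15 mg/kg into the peritoneum and saline the same way, 2 times a day in both cases. Each of the 6 groups had 3 samples, and the labels mention no injection of the naive mice, so that injury and repeated injection cannot be told apart. The stated aim was to find how RGS9-2, a regulator of G protein signalling in the striatum, bears on gene expression in neuropathic pain and its treatment with an antidepressant. Below, the groups are called naive, saline and desipramine, and both of the last had the injury.

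Every deposited table sets one group against another, and each gene has 1 FPKM value for either group (fragments mapped, scaled by transcript length and library size). Cuffdiff's fold change on the log2 scale, its statistic, p and adjusted p (q) come with them. A gene was called changed where Cuffdiff tested it and q was at or below 0.05. A value after ± is a standard error obtained by dividing the log2 fold change by the statistic. The deposited p and q do not follow from this error as a normal deviate would, and may disagree with it. These tables give groups, not samples, so the spread between mice is not seen directly and depth is unknown. A group's value for any member differed by at most 2.23% between the tables that hold it.

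The 14 markers found of medium spiny neurons, the main cells of the labelled tissue, summed to 2669 to 4248 FPKM over the groups, with none at 0. Markers of cortical neurons, choroid plexus and septal or thalamic neurons were also all above 0, at lower sums. Rgs9 went against the genotype label, at 103 to 123 FPKM in the groups labelled wild type and 166 to 219 in those labelled knockout over all tables, so genotype groups are named by label throughout. Naive mice labelled wild type stood apart as a group, with summed cortical neuron markers at 299.7 FPKM against 65.5 to 120.1 elsewhere. Choroid plexus markers summed to 1457 FPKM in it against 29.2 to 681 elsewhere. Slc17a7 alone was at 222 FPKM and Ttr alone at 1362 in this group, so each of these sums was mostly 1 gene. Both comparisons of naive mice labelled wild type rest on that group. By their titles the groups each had a separate sequencing lane, and the effect of lane cannot be told apart from that of group. In bulk tissue, fewer cells of a type and less RNA per cell cannot be told apart either.

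Neuropeptides are cut from larger precursors, stored in dense granules and released to act on G protein-coupled receptors. Oxytocin and vasopressin are made mainly by large neurons of the paraventricular and supraoptic nuclei of the hypothalamus, whose axons reach the pituitary and also the forebrain, the nucleus accumbens included. Galanin is made in several hypothalamic and basal forebrain cell groups, gonadotropin-releasing hormone in scattered preoptic and septal neurons, thyrotropin-releasing hormone in paraventricular and other neurons, and orexin and melanin-concentrating hormone in the lateral hypothalamus. Accumbens medium spiny neurons receive several of these peptides as inputs and carry their receptors.

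Of the 7 genes, Oxt, Avp, Gal and Gnrh1 were called in at least 1 comparison, while Trh, Hcrt and Pmch were called in none. The calls made up 15 of 47 tests of a member, in tables where 0.202% to 1.44% of all tested genes were called. The 4 genes did not share 1 profile. Oxt was highest in the naive group labelled knockout, Avp in the desipramine group labelled wild type, Gal in the desipramine group labelled knockout and Gnrh1 in the saline group labelled wild type. Across the 6 groups the highest level was 271-fold the lowest for Oxt, 79.4-fold for Avp, 7.53-fold for Gnrh1 and 3.85-fold for Gal. The lowest levels of Oxt and Avp were 0.160 and 0.311 FPKM and depth is unknown, so the size of their ratios is uncertain. Trh moved least, with a ratio of 1.79.

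**Figure D1:**
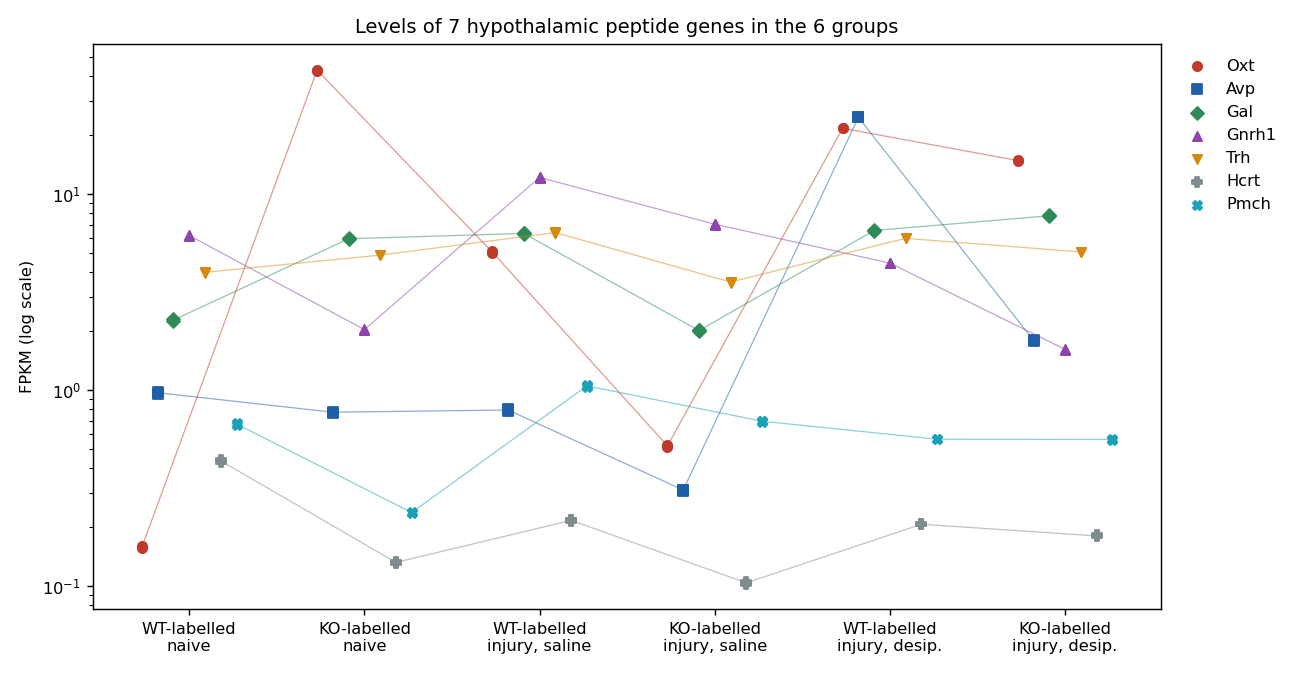
FPKM on a log axis for 7 peptide genes in the 6 groups, 3 samples each; each symbol is the authors' deposited value of a group, drawn once per table that holds it (2 or 3, mostly overlapping), and thin lines only join a gene's symbols. Oxt runs from 0.157 to 43.3 FPKM and Avp from 0.307 to 24.7, with their peaks in different groups, while Trh stays between 3.54 and 6.44.

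Oxt encodes the precursor of oxytocin, a peptide of social behaviour, birth and lactation. In naive mice labelled wild type it was near the bottom of the tested genes (0.157 to 0.160 FPKM), where at most 0.878% of tested genes were lower. In the naive group labelled knockout it stood at 42.8 to 43.3 FPKM, above 86.2% of tested genes or more. The saline groups held 5.03 to 5.13 FPKM under the wild type label and 0.517 to 0.523 under the knockout label. With desipramine the levels were 21.7 to 21.8 and 14.8 to 14.9 FPKM. In all, 3 groups were thus high (naive labelled knockout and both desipramine groups), 1 was between, and 2 were below 1 FPKM.

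Avp encodes the precursor of vasopressin, the antidiuretic peptide that also acts as a neuromodulator. Its level was 24.7 FPKM in both tables of the desipramine group labelled wild type and 1.79 to 1.80 in the desipramine group labelled knockout. The naive groups held 0.962 to 0.983 FPKM under the wild type label and 0.769 to 0.778 under the knockout label. In the saline groups it was 0.786 to 0.801 and 0.307 to 0.312 FPKM. One group was therefore high, and the naive group labelled knockout, where Oxt was highest, was not. The ratio of Oxt to Avp within a table was 0.163 and 55.6 in the naive groups, 6.40 and 1.68 in the saline groups, and 0.880 and 8.27 in the desipramine groups, the wild type label first.

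Both genes lie side by side on chromosome 2 and point towards each other, Oxt at 130401909 to 130402790 on the plus strand and Avp at 130406356 to 130408290 on the minus strand (NCBIM37 coordinates of the authors' deposited tables, strand from GENCODE M21). The gap between them is 3565 bases. The 3 tested genes on either side (Ptpra, Mrps26 and 4930473A02Rik before Oxt, Ubox5, Fastkd5 and Prosapip1 after Avp) were not called in any comparison of the authors' deposited tables (lowest q = 0.246). Their log2 fold changes lay between -0.63 and 0.48 in those tables. The 3 before Oxt share a listed locus, as do Ubox5 and Fastkd5, so their order and exact distance are not known here. 4930473A02Rik had standard errors of 1.68 to 3.90, and differences within them were not detectable.

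The promoters of this neighbouring pair are shown because the genes share a locus but peaked in different groups. They cover 250 bases before to 50 after the start in RefSeq's GRCm38.p6, chr2:130575919-130576218 on the plus strand for Oxt and chr2:130582539-130582838 on the minus strand for Avp. Capitals mark matches, on either strand, to AGGTCA (the half-site of several nuclear receptors, reading TGACCT on the other strand) or CANNTG (the E-box of basic helix-loop-helix factors).
Oxt promoter: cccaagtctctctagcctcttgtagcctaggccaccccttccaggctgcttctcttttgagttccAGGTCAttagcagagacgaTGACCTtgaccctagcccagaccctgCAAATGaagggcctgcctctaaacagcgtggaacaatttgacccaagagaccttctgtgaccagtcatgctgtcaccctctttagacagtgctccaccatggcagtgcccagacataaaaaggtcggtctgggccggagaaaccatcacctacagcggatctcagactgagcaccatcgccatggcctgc
Avp promoter: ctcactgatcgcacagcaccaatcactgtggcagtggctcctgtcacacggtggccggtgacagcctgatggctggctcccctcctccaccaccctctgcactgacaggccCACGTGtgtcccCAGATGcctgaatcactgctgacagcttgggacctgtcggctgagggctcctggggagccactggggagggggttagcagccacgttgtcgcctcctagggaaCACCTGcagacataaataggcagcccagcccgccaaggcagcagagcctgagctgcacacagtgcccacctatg
The Oxt window held 2 matches to AGGTCA, starting 185 and 166 bases before the start, and 1 to CANNTG. The Avp window held 0 matches to AGGTCA and 3 to CANNTG. Of the 27025 promoters in the same table, 16% held AGGTCA and 72.1% held CANNTG. Neither window held TGACG, the half-site of cyclic AMP response elements (21% of promoters), or TAATTA, a homeodomain core (5.31%). No matches overlapped, and a match is a description of letters, not of a bound site. A promoter was also found for Gal, Trh, Hcrt and Pmch, 6 members in all; Gnrh1 is named only.

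Genotype labels were compared in naive, saline and desipramine mice. In naive mice 1 of 7 tested members was called in the authors' deposited table, against 1.44% of all tested genes. That was Gnrh1, which fell from 6.11 to 2.03 FPKM (log2 fold change -1.59 ± 0.46, q = 0.0242). Oxt had the larger difference, 0.157 against 42.8 FPKM in the authors' deposited table (log2 fold change 8.09 ± 0.66), but its p of 0.0015 gave a q of 0.0782 and no call. Its statistic was 12.2. A normal p from the statistic, which called 0.444% of all tested genes, did call Oxt and did not call Gnrh1. Oxt was chosen for its swings and the lower value is 0.157 FPKM, so that call is a description and not support. Avp differed by -0.32 ± 0.57 and Gal by 1.38 ± 0.56 in the authors' deposited table, neither called. Of the marker lists, 7 of 10 cortical markers were called lower under the knockout label and 4 of 14 of medium spiny neurons higher. Choroid plexus markers were lower for 12 of 12, without a call. The part of these lists in these results was not tested.

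With saline, 2 of 7 members were called lower in the group labelled knockout, against 0.162% of all tested genes called lower, 0.168% higher and 0.329% either way in the authors' deposited table. Oxt was 9.72-fold lower (5.08 to 0.523 FPKM, q = 0.017) and Gal 3.11-fold lower (6.32 to 2.03 FPKM, q = 0.017). All 7 log2 fold changes were negative in the authors' deposited table, with a median of -1.05 against 0.00313 for all tested genes. Trh came close at -0.83 ± 0.35 (q = 0.0567 in the authors' deposited table) and passed when p-values were adjusted over all 7 tables, as 0.422% of all tested genes did.

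After desipramine, Avp and Gnrh1 were called lower in the group labelled knockout, 2 of 7 members, against 0.548% of tested genes called lower and 0.859% either way in the authors' deposited table. Avp was 13.7-fold lower there (24.7 to 1.80 FPKM, q = 0.00818). Gnrh1 was 2.74-fold lower in the authors' deposited table (4.45 to 1.63 FPKM, q = 0.00818). Oxt was not called, at 21.7 and 14.9 FPKM with a log2 fold change of -0.54 ± 0.24 in the authors' deposited table (q = 0.443). Gnrh1 was thus lower under the knockout label in all 3 tables, by -1.59, -0.79 and -1.45 on the log2 scale, and called in 2 of them. Choroid plexus markers moved between the same groups, with 12 of 12 higher under the knockout label with saline (6 called) and with desipramine (8 called). With desipramine 3 of 10 cortical markers were also called lower under the knockout label, and the part of both lists in these results was not tested.

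**Figure D2:**
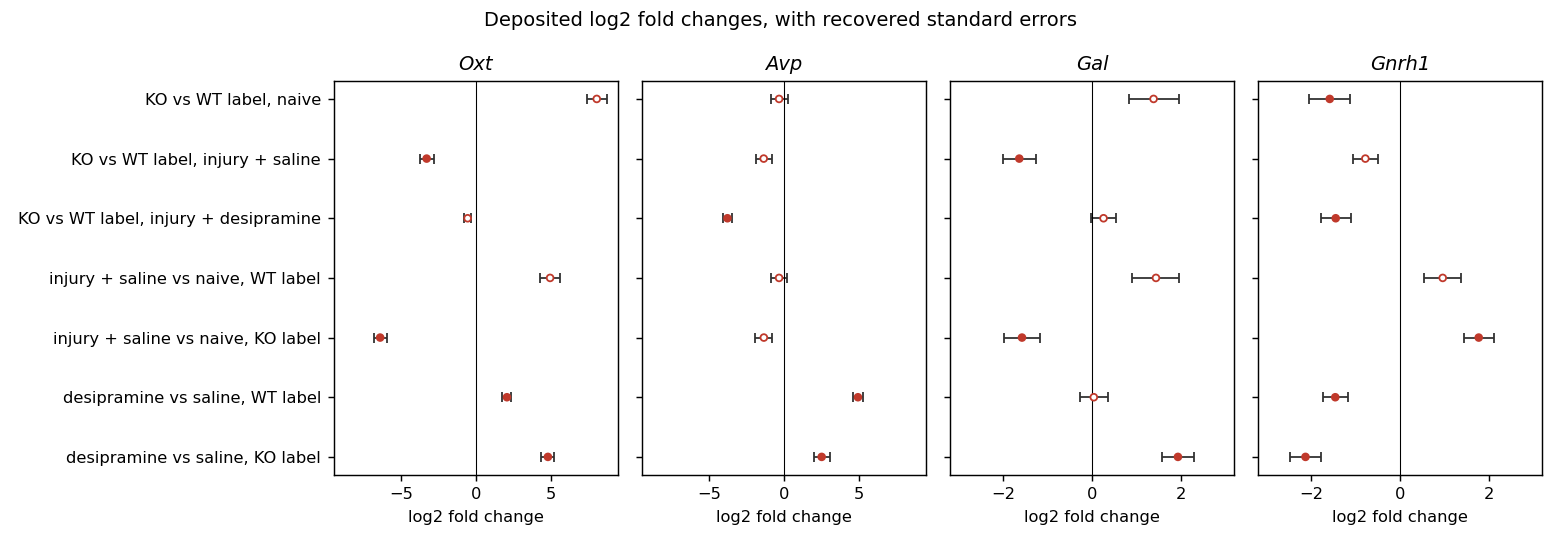
Log2 fold change (x axis; its range is wider for Oxt and Avp than for Gal and Gnrh1) in the 7 comparisons (rows) for 4 peptide genes, with 3 samples per group; bars are recovered standard errors and filled points were called by Cuffdiff at q of 0.05 or less. Oxt is at 8.09 in naive mice without a call and at -6.39 with one after injury under the knockout label, and Gnrh1 is below 0 in all 3 comparisons of genotype labels.

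Injury with saline was set against the naive state within each genotype label. Under the wild type label Cuffdiff called 0 of 7 members, against 1.42% of all tested genes, while 4 had an unadjusted p under 0.05, as 8.94% of all tested genes did. A normal p from the statistic called 1, Oxt, and 0.492% of all tested genes. Oxt was at 0.160 FPKM in naive and 5.03 in injured mice in the authors' deposited table (log2 fold change 4.97 ± 0.68, q = 0.0643). Gal was at 2.31 and 6.25 FPKM (1.44 ± 0.53, q = 0.0578), and Gnrh1 at 6.23 and 12.1 FPKM (0.96 ± 0.42, q = 0.291), in the authors' deposited table.

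Under the knockout label 3 of 6 tested members were called after injury, 2 of them lower, against 0.459% of all tested genes called and 0.169% called lower in the authors' deposited table. Oxt fell 83.7-fold (43.3 to 0.517 FPKM, log2 fold change -6.39 ± 0.44, q = 0.0128). Gal fell 2.99-fold in the authors' deposited table (5.97 to 2.00 FPKM, q = 0.0128), while Gnrh1 rose 3.40-fold (2.05 to 6.97 FPKM, q = 0.0128). For Oxt and Gal the log2 fold changes had opposite signs under the wild type and knockout labels, 4.97 and -6.39 for Oxt and 1.44 and -1.58 for Gal in the authors' deposited tables. That difference between labels was not tested, since the genes were chosen from these values. For Gnrh1 both values were positive, 0.96 and 1.77. Marker lists moved with injury too. Under the wild type label 9 of 12 choroid plexus and 7 of 10 cortical markers were called lower. Under the knockout label 4 of 14 markers of medium spiny neurons were called lower, and 10 of 10 cortical markers were higher (1 called). The part of these lists in these results was not tested.

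Desipramine was set against saline in injured mice. Under the wild type label 3 of 7 members were called in the authors' deposited table, 2 higher and 1 lower, against 0.202% of all tested genes called, 0.167% higher and 0.0347% lower. Avp rose 30.9-fold (0.801 to 24.7 FPKM, log2 fold change 4.95 ± 0.36) and Oxt 4.25-fold (5.13 to 21.8 FPKM, 2.09 ± 0.30) in the authors' deposited table, with a q of 0.0279 for both. Gnrh1 fell by 1.46 on the log2 scale in the authors' deposited table (12.3 to 4.46 FPKM, q = 0.0279). Gal was at 6.38 and 6.55 FPKM there (0.04 ± 0.31). Of the marker lists, 10 of 10 cortical markers were higher (1 called) and 11 of 11 tested choroid plexus markers lower (1 called), and their part in these results was not tested.

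With the knockout label 4 of 6 tested members were called on desipramine, against 1.05% of all tested genes in the authors' deposited table. Oxt rose 28.3-fold (0.523 to 14.8 FPKM), Avp 5.75-fold (0.311 to 1.79 FPKM) and Gal 3.82-fold (2.03 to 7.74 FPKM), each with a q of 0.00739 in the authors' deposited table. Gnrh1 fell 4.39-fold (7.07 to 1.61 FPKM, q = 0.00739) in the authors' deposited table. There 10 of 10 cortical markers were lower (3 called), and their part in these results was not tested. Oxt and Avp were thus called higher and Gnrh1 lower on desipramine under both labels. Each saline group also enters a genotype comparison and an injury comparison, so values that share it are not separate evidence.

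The releasing hormone genes behaved differently from each other. Gnrh1, whose product drives pituitary gonadotropin release, was called in 5 of 7 comparisons and was lower in 4 of the 5. Its level was 12.1 to 12.3 FPKM in the saline group labelled wild type, 6.97 to 7.08 in that labelled knockout, 6.11 to 6.23 and 2.03 to 2.05 in the naive groups, and 4.45 to 4.46 and 1.61 to 1.63 in the desipramine groups, the wild type label first. At each treatment the group labelled wild type was the higher of the pair. Summed septal and thalamic markers ranged from 80.2 FPKM in naive mice to 128.9 in desipramine mice, both labelled knockout. Gnrh1 had its lowest levels in these same groups, 2.03 to 2.05 FPKM in the first and 1.61 to 1.63 in the second. The part of these markers in the Gnrh1 result was not tested. Trh, whose product drives pituitary thyrotropin release, stayed within 3.54 and 6.44 FPKM, and its log2 fold changes lay between -0.83 and 0.65 in the authors' deposited tables.

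The genes of the lateral hypothalamic peptides had low levels in every group. Hcrt, the orexin precursor gene, had no value above 0.441 FPKM and was tested in 5 of 7 tables, with standard errors of 1.24 to 1.93 on the log2 scale. Pmch, the precursor gene of melanin-concentrating hormone, lay between 0.237 and 1.06 FPKM, with standard errors of 0.70 to 1.19. Differences within such errors were not detectable in these tables. The lowest q in the authors' deposited tables was 0.756 for Hcrt and 0.853 for Pmch. The locus listed for Pmch spans 55870 bases and overlaps 4930547N16Rik, while the gene itself is 1304 bases in GENCODE M21, so reads of the overlapping gene could have been counted with it. Hcrt is on chromosome 11, 8.46 Mb from the targeted gene Rgs9.

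Across the 6 group levels, on the log2(FPKM + 0.1) scale, Oxt and Gal had a Pearson r of 0.90, Gal and Trh 0.87, and Gnrh1 and Pmch 0.79. Oxt and Avp had an r of 0.47, and Oxt and Gnrh1 -0.59. These 5 of 21 pairs are a description over 6 points, each a mean of 3 samples that shares lane and dissection with every other gene of its group. By rank, Oxt and Gal had a rho of 0.54 only, since Gal was about equally high in 4 groups in which Oxt ranged from 5.03 to 43.3 FPKM.

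Gal, the galanin gene, was compared with a list of genes rich in the hypothalamus and preoptic area. Low values were 2.26 to 2.31 FPKM in naive mice labelled wild type and 2.00 to 2.03 in the saline group labelled knockout, and the other 4 groups held 5.90 to 7.81. Irs4, an insulin receptor substrate, was at 0.606 to 0.618 and 1.23 to 1.25 FPKM in the same low groups and at 2.40 to 3.85 elsewhere, with an r of 0.92 with Gal. The GABA-A receptor subunit genes Gabre and Gabrq each had an r of 0.89 with Gal, and the kinase gene Dgkk 0.79. Such values were not particular to this list. Among 652 genes with at least 1 FPKM and a log2 range of at least 1, 30 had an r of 0.9 or more with Gal. The 5 most alike were Fam47e (0.99), Ccdc33 (0.97), Car9 (0.97), Lrrc36 (0.96) and Cdhr4 (0.95), all from outside the list. Without the naive group labelled wild type, the genes most alike changed for all 7 members, Gal included. The list was made with earlier results of these data known, those of Irs4, Gabre, Gabrq and Dgkk included. Its counts are therefore a description and not support. Of 19 tested genes of this list of 20, none of them a member, 6 were called lower under the knockout label with saline, against 0.162% of all tested genes. They included Irs4 (-1.61 ± 0.34), Gabrq (-1.45 ± 0.35), Gabre (-1.40 ± 0.50) and Dgkk (-1.03 ± 0.31) in the authors' deposited table, and 19 of 19 were negative with a median of -0.54. After injury under the wild type label 8 were called higher, against 0.361% of all tested genes, and 19 of 19 were positive with a median of 0.54. On desipramine under the knockout label 7 were called higher, against 0.751%, and again 19 of 19 were positive with a median of 0.51. Under the knockout label after injury the list did not follow Gal as closely, with 1 called lower, Irs4 (-0.99 ± 0.33 in the authors' deposited table), and a median of -0.10. Between naive groups, where Gal differed by 1.38 without a call, 13 of 19 were positive with a median of 0.31, and 5 were called higher, against 0.334% of all tested genes. With p taken from the statistic, Irs4 and Gabrq remained called with saline and on desipramine under the knockout label, Irs4 and Dgkk after injury under the wild type label, and none of the list between naive groups. The medians of all tested genes in these 5 tables lay between -0.0263 and 0.00551. The list's summed level was lowest at 1294 FPKM, in naive mice labelled wild type, then 1312 and 1342 in the saline and naive groups labelled knockout and 1584 to 1706 in the others, with no gene at 0 in any group. Its part in the Gal result was not tested.

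**Figure D3:**
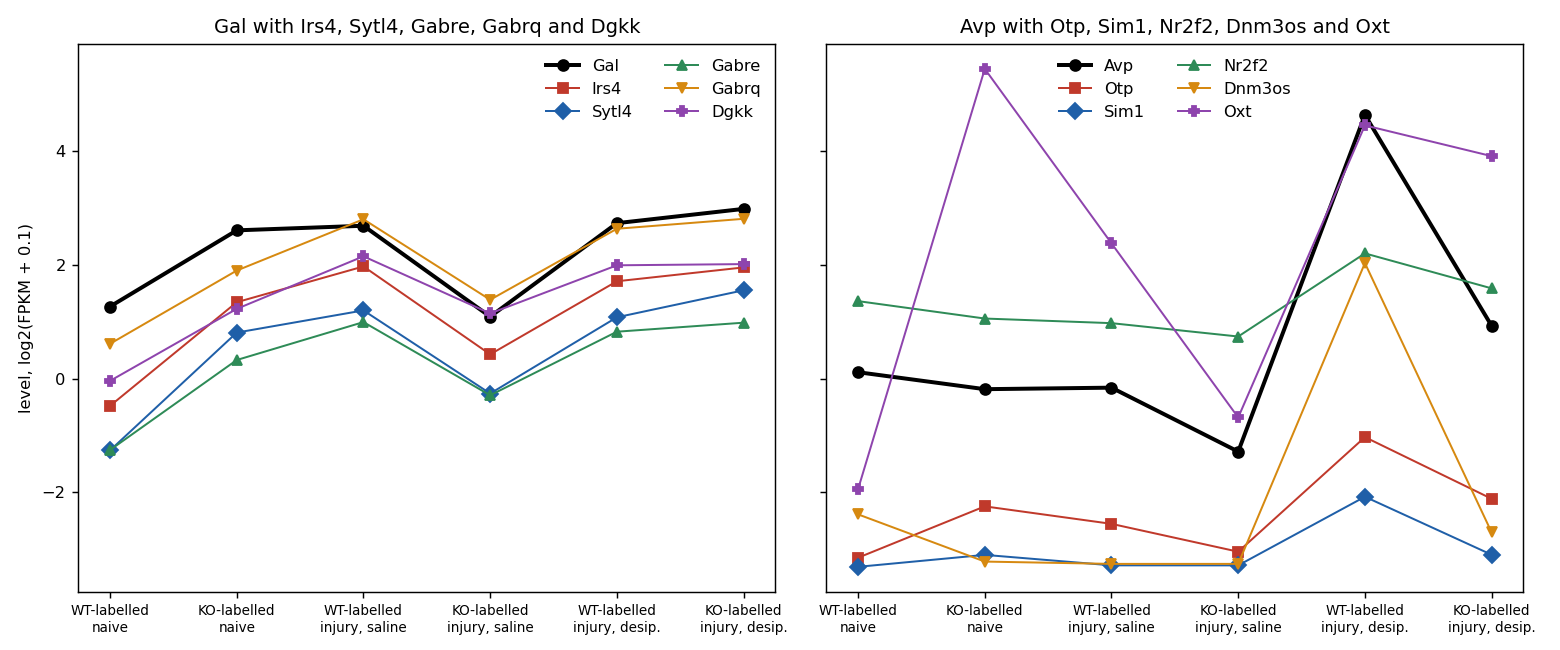
Levels on the log2(FPKM + 0.1) scale in the 6 groups (3 samples each) for Gal with 5 genes of the hypothalamic and granule lists (left) and for Avp with transcription factors, a noncoding RNA and Oxt (right); lines only join a gene's points. Gal and Irs4 are both low in naive mice labelled wild type and in the saline group labelled knockout, and Avp peaks in the desipramine group labelled wild type, as do Otp, Sim1, Nr2f2 and Dnm3os, which are drawn because their profile is like that of Avp.

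Of 20 hypothalamic transcription factor genes, 6 were highest in the desipramine group labelled wild type, where Avp peaked, and 8 in the saline group labelled wild type. Pou3f2 and Arnt2, which also serve neurosecretory neurons, were among those 8, at 5.84 and 61.4 FPKM. In the 12 tested on desipramine under the wild type label, 5 log2 fold changes were positive and the median was -0.02. Otp and Sim1 were singled out after their values were seen. Otp, needed for oxytocin and vasopressin neurons to form, was at 0.390 to 0.391 FPKM in the desipramine group labelled wild type and between 0.0127 and 0.132 in the other 5. Sim1, needed for the same neurons, was at 0.137 FPKM there and at most 0.0171 elsewhere. Both levels are far below 1 FPKM. Cuffdiff tested Sim1 in no table and Otp in 2, where its q was 0.384 and 0.546 in the authors' deposited tables. The 5 genes whose group profile was most like that of Avp, among 652 genes with a level of at least 1 FPKM and a range of at least 1 on the log2 scale (predicted and small RNA genes left out), were Dnm3os (r = 0.96), Nr2f2 (0.96), Cyp26b1 (0.95), Mab21l1 (0.87) and Morn3 (0.84). Dnm3os, a noncoding RNA from the strand opposite Dnm3, was at 3.98 FPKM in the desipramine group labelled wild type and at most 0.0914 elsewhere, and the labelled library kit does not mark strand. Nr2f2, a nuclear receptor gene, was at 4.49 FPKM there and 1.57 to 2.90 elsewhere. For Oxt the 5 most alike were Ttc16 (0.92), Ccdc33 (0.91), Gal (0.90), Ppp1r32 (0.89) and Sec14l3 (0.88), of which Ccdc33 ran from 2.46 to 7.14 FPKM. Without the naive group labelled wild type, 0 of these 5 genes for Oxt and 3 of 5 for Avp stayed among the most alike.

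Of 13 receptor genes, 12 were found in the tables and 9 or 10 were tested per comparison, and 1 call was made in all. That was Avpr1a, the main vasopressin receptor of the brain, which rose after injury under the knockout label, from 0.360 to 0.886 FPKM (log2 fold change 1.30 ± 0.49, q = 0.0344) in the authors' deposited table, where 0.291% of all tested genes were called higher. It was not called with a filter at 1 FPKM, with q of 0.01 or less or with p taken from the statistic. Oxtr, the oxytocin receptor gene, stayed between 1.82 and 2.68 FPKM, with log2 fold changes of -0.43 to 0.33 in the authors' deposited tables. Mchr1, the receptor of melanin-concentrating hormone, was the most abundant at 19.7 to 28.6 FPKM. Trhr, a receptor of thyrotropin-releasing hormone, was at 3.46 and 6.31 FPKM in naive mice labelled wild type and knockout (0.87 ± 0.46, q = 0.085 in the authors' deposited table). Median log2 fold changes of the receptor list lay between -0.10 and 0.29. Avpr2 and Trhr2 had standard errors of 14.7 and 22.1 on the log2 scale between naive groups. Their errors were 8.49 and 16.0 after injury under the knockout label. Differences within such errors were not detectable, so the lack of a call for these genes does not show stable levels.

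Of 18 genes that process and store peptides, tested 126 times over the 7 tables, the 4 calls were all of Sytl4, which encodes a protein that docks secretory granules. It rose in naive mice labelled knockout (0.312 to 1.63 FPKM, log2 fold change 2.39 ± 0.84, q = 0.00761) and after injury under the wild type label (2.77 ± 0.87, q = 0.00766) in the authors' deposited tables. It fell under the knockout label with saline (-1.58 ± 0.61, q = 0.017) and rose on desipramine under that label (1.94 ± 0.58, q = 0.00739) in the authors' deposited tables. All 4 calls were lost with p taken from the statistic, and that with saline also with q of 0.01 or less. Of all tested genes, 0.329% to 1.44% were called in these 4 tables. Sytl4 was known from earlier results of these data when the list was made. Cpe, a carboxypeptidase that trims precursors, was at 1120 to 1335 FPKM throughout. Pcsk1n, an inhibitor of the convertase that cuts them, was at 1125 to 1148 FPKM in naive mice labelled wild type and 500.3 to 636 elsewhere, without a call (lowest q = 0.0537 in the authors' deposited tables). List medians lay between -0.24 and 0.12.

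**Figure D4:**
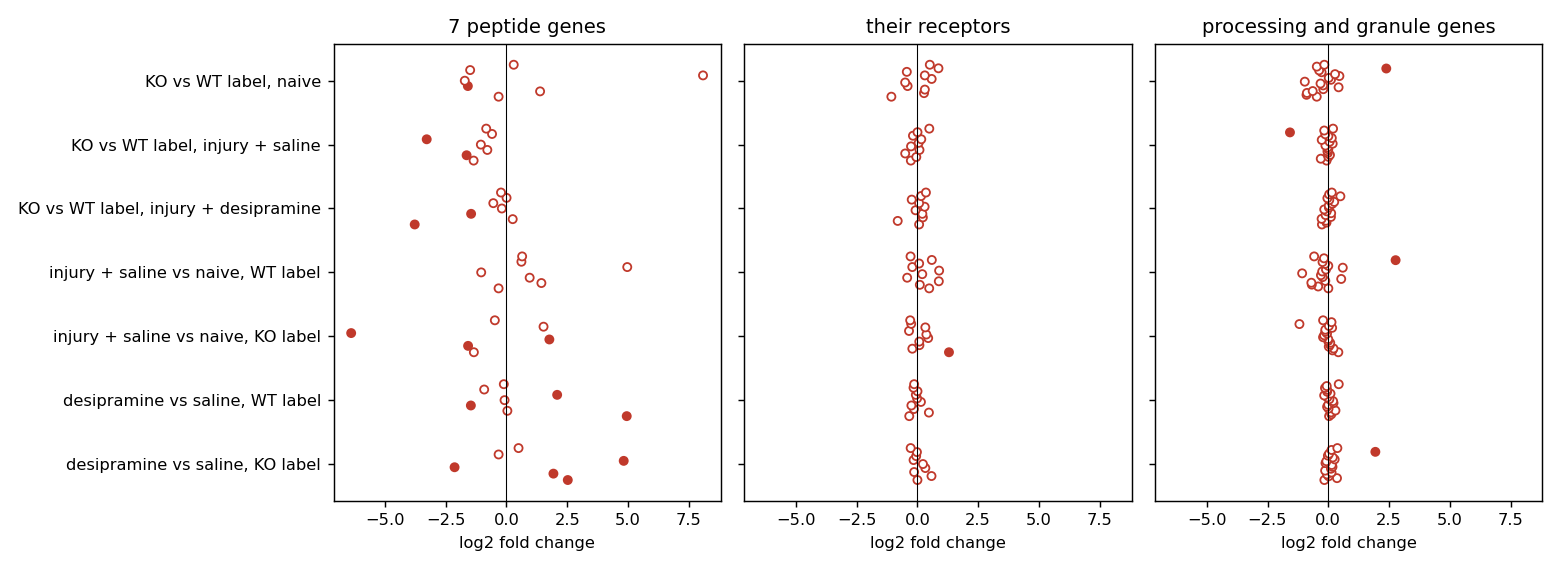
Log2 fold changes (x axis) in the 7 comparisons (rows) of the 7 peptide genes, their receptors and 18 processing and granule genes, with 3 samples per group; each circle is a tested gene, spread vertically only for legibility, and filled circles were called by Cuffdiff at q of 0.05 or less. The peptide genes reach from -6.39 to 8.09. They were chosen for large swings between these groups, so a wider spread than that of the other lists follows from the choice. The receptors hold 1 call (Avpr1a) and the processing genes 4 (all Sytl4).

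Of 20 other peptide genes of the hypothalamus, 12 to 15 were tested per comparison. In naive mice 4 fell under the knockout label, Adcyap1 (-1.85 ± 0.57), Vip (-1.67 ± 0.50), Grp (-1.98 ± 0.82) and Crh (-1.23 ± 0.42), in the authors' deposited table, where 1.11% of all tested genes fell. None of the 4 was called with p taken from the statistic. These are also expressed in cortex, and the summed cortical markers fell between the same groups, from 299.7 to 75.0 FPKM, with their part in this result not tested. Adcyap1, which encodes the peptide PACAP, was called in 5 comparisons. It was lower under the knockout label in naive and desipramine mice and higher after injury under that label. On desipramine it was higher under the wild type label and lower under the knockout label. In these 5 comparisons 0.202% to 1.44% of all tested genes were called. With p taken from the statistic, only the Adcyap1 call between genotype labels in desipramine mice remained. On desipramine under the knockout label Crh, the corticotropin-releasing hormone gene, rose with Oxt and Avp in the authors' deposited table (4.60 to 9.06 FPKM, 0.98 ± 0.28, q = 0.00739). Nts, the neurotensin gene, rose there by 0.61 ± 0.20 (q = 0.0195). Of all tested genes, 0.751% were called higher in this comparison. The calls of Crh and Nts were lost with p taken from the statistic, and that of Nts also with q of 0.01 or less. Among 20 hypothalamic transcription factor genes, 8 to 12 of them tested, Lhx9 was the one called by Cuffdiff, higher after injury under the wild type label (1.77 ± 1.003, q = 0.0493) and on desipramine under the knockout label (1.72 ± 0.78, q = 0.0322) in the authors' deposited tables. Its highest level was 0.413 FPKM. Both calls were lost with q of 0.01 or less, with p taken from the statistic and with a filter at 1 FPKM, and the first also with adjustment over all 7 tables. Of 10 septal and thalamic markers, Slc17a6, a glutamate transporter gene of subcortical neurons, was called lower under the knockout label with desipramine (-0.64 ± 0.20, q = 0.00818) and higher after injury under that label (0.97 ± 0.29, q = 0.0128) in the authors' deposited tables. In the first of these 7 of 10 were positive, with a median of 0.06. On desipramine under the knockout label, where Gnrh1 fell, 9 of 10 were positive and Trpc4 and Calb2 were called higher. After injury under that label, where Gnrh1 rose, 9 of 10 were positive too. With saline Calb2 was called lower under the knockout label.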

How the data were processed

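RNA of the nucleus accumbens was taken up in Trizol, purified on RNeasy Micro columns and sequenced as TruSeq libraries on an Illumina HiSeq, per the labels' protocols. The submitters' processing notes name TopHat2 2.0.9, Bowtie2 2.1.0 and Cuffdiff 2.1.1, and as builds NCBIM37 and mm9; annotation release and options: not given in the sources used here. What the authors deposited is 7 tables with 1 FPKM value per gene and group, normalized within each table. The deposited log2 fold change divides the second group by the first, the statistic beside it is a score of the same sign, and the deposited q-value is the Benjamini-Hochberg adjusted p-value over the genes tested in that table. Between 17203 and 17464 genes were tested per table. The lowest deposited p is 5.00e-05, the value of 14 of the 15 calls of a member.

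Limma on log2 values, planned for values per sample, was not used, since the tables hold 1 value per group, and p-values measure only the spread that Cuffdiff modelled. Group levels across tables are means of log2(FPKM + 0.1) after 1 factor per table (0.991 to 1.002), and are used only to describe. Locus starts were raised by 1, because end minus start equalled the GENCODE M21 gene length for 13984 of 32903 genes and end minus start plus 1 for 334. The members and lists were chosen with earlier results of these data known. Genes named are the members, the 5 most like Oxt and Avp in profile, and the neighbours of Oxt and Avp. Per list and comparison they are up to 4 called genes, or up to 2 with the lowest p where none was called, and not all are named. Oxtr, Mchr1, Cpe, Pcsk1n, Otp, Sim1, Pou3f2, Arnt2 and the 5 most like Gal were added after their values were seen. The normal-p calculation was tested on data simulated with normal errors. That checks the calculation only, and not whether a normal p suits the deposited statistics. Python 3.11.15, pandas 2.3.3 and scipy 1.17.1 were used.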

Additional observations from a re-analysis of the deposited data

How the results depend on the processing

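No paired analysis was possible because the tables hold 1 value per group, with no column per replicate, and leaving out a replicate was not run for the same reason. With calls at q of 0.01 or less, 0 members were called in naive and saline genotype comparisons, after injury under the knockout label and on desipramine under the wild type label (1, 2, 3 and 3 before); the lowest q that the tables allow is above 0.01 in the last 3. The same threshold left 0 genes of the 5 peptide pathway and hypothalamic lists called with saline between genotypes, after injury under the knockout label and on desipramine under the wild type label (7, 3 and 1 before). With p taken from the statistic as a normal deviate, 1 member, Oxt, was called after injury under the wild type label (0 before), and Oxt replaced Gnrh1 in naive mice. In the other 5 comparisons all the members called before were called. List genes called with that p numbered 0 in naive mice, 2 with saline, 1 with desipramine, 2 and 0 after injury and 0 and 2 on desipramine, the wild type label first, against 10, 7, 2, 10, 3, 1 and 12; the cause was not tested. Adjustment over all 7 tables gave 2 list genes in place of 1 on desipramine under the wild type label and 8 in place of 7 with saline. It gave 7 in place of 10 after injury under the wild type label, where Baiap3, Calcr and Lhx9 were lost, and 9 in place of 10 in naive mice, where Gabrq was lost. Fold changes of members kept their sign wherever they were called, with a pseudocount of 0.1 or 1 FPKM or centred on the median gene. A pseudocount of 1 FPKM moved 15 of the 47 that have a standard error by more than it, Oxt in naive mice from 8.09 to 5.24. Depth is unknown, so it cannot be said how far low levels of Hcrt, Pmch, Otp and Sim1 were limited by counting. The same holds for Oxt and Avp in groups below 1 FPKM, and for fold changes that rest on those groups.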
